A study of Equus caballus with 6 samples.

Results

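The loci described here are transcribed regions without an Ensembl identifier that were read in the testes of immature colts and almost not at all in those of mature stallions. Of 58724 features in the deposited tables, 31733 carry a number of their own in place of an Ensembl identifier and came from the assembly of transcripts from the reads. From these, 265 loci were chosen by their counts in all 6 libraries: at most 3 counts in each mature library, and at least 1 CPM (counts scaled by the library total, so that each library sums to 1000000) in each immature library. Because the levels in both stages chose the loci, those levels are given below as a description, without a test. The opposite pattern, at most 3 counts in each immature library and at least 1 CPM in each mature library, held for 1627 assembled loci. With the same choice as for the 265 loci, 66 Ensembl genes were found.

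The testes were those of healthy Mongolian horses that were gelded, and which region of each testis was sequenced is not given in the sources used here. The BSM group (before sexual maturation) held 3 colts between 11 and 13 months old, and the ASM group (after sexual maturation) held 3 stallions between 3 and 4 years old. The study names no treatment, and each horse gave 1 library of poly(A) RNA. The names ASM1, ASM2 and ASM3 follow the numbers of the mature columns, which could be tied to their group but not to single sample titles. Age was judged from the teeth and from the owner, and no count of germ cells or section of the tissue was used here, so the degree of maturation of each colt is not known. The tables pair no identifier with a gene symbol, so the tissue could not be checked against its defining markers.

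Assembled loci of this kind can hold long noncoding RNAs, unannotated ends or exons of known genes, copies of repeats, or protein-coding genes that the annotation lacks. The testis is known for transcribing an unusually large part of the genome, mostly in meiotic and postmeiotic germ cells, which are few or absent before puberty. The immature testis consists mainly of Sertoli cells, which support the germ cells, of interstitial cells and of spermatogonia, and these cells become a smaller part of the tissue once the tubules fill with spermatocytes and spermatids. In bulk tissue, fewer cells of a type and less RNA per cell cannot be told apart. The sequences and genome positions of the assembled loci were not used here, so each locus is known by its number, its length and its counts.

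The libraries held between 14015484 and 19721986 counts on genes and loci. At these depths 1 CPM was at most 15.9 counts in a BSM library, and 3 counts were between 0.152 and 0.174 CPM in the ASM libraries. The floors and intervals given below cover counting error only. BSM2 stood apart from the other colts in many of the restricted loci, though in some of them BSM1 did. The counts of BSM2 are therefore shown beside those of the other colts. The main values that BSM2 lowers are also given as the mean of BSM1 and BSM3 alone, an alternative chosen after the data were seen.

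Restriction to the immature testis was rare among assembled loci that were read in every colt. Of the 6775 assembled loci at 1 CPM or more in all BSM libraries, 265 (3.91%) had at most 3 counts in each ASM library. With BSM2 left out of the choice, 559 of the 7684 assembled loci at 1 CPM or more in BSM1 and BSM3 did, a larger part. Of the 8769 assembled loci at 1 CPM or more in all ASM libraries, 1627 (18.6%) had at most 3 counts in each BSM library. These counts rest on scaling by the library total, and 3 counts were a higher level in the BSM libraries, from 0.189 to 0.214 CPM, than in the ASM libraries. With a single limit of 0.152 CPM for the low stage in both directions 189 of the 6775 loci (2.79%) and 1138 of the 8769 loci met it. With TMM scaling the shares were 2.88% (178 loci) and 19.8% (1873 loci), and with DESeq2 size factors 2.53% (146 loci) and 20.5% (2020 loci), so that the mature share was the larger under each setting. Ensembl genes met either pattern seldom, with 66 of 13946 (0.473%) for the immature pattern and 77 of 13378 (0.576%) for the mature one. The 265 loci together held 12516 counts in BSM1, 7735 in BSM2 and 10601 in BSM3. They held 337 counts in ASM1, 399 in ASM2 and 332 in ASM3. As shares of all counts this was 0.0800%, 0.0486% and 0.0756% in the colts, with a mean of 0.0681% ± 0.0170 (SD, n = 3), and 0.00190% ± 0.000143 (SD, n = 3) in the stallions. The stages did not overlap, as the choice of the loci requires, and among the colts BSM2 was the lowest.

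Most of the loci were expressed at a low level even in the colts. The mean over the BSM libraries was between 1.08 and 17.7 CPM with a median of 1.82 CPM, and 159 of the 265 loci (60.0%) were under 2 CPM. By comparison, the median was 3.68 CPM over all 6775 assembled loci at 1 CPM or more in the BSM libraries, and 907 of those (13.4%) had a higher mean CPM than the highest of the restricted loci. In FPKM, which divides by length as well as by depth, the median of the restricted loci was 1.03 and the range was from 0.432 to 24.1. A mean FPKM over 1 in the colts was reached by 139 loci. Over BSM1 and BSM3 alone the median was 1.94 CPM and 1.12 FPKM, with 143 loci (54.0%) under 2 CPM and 156 over 1 FPKM. The 10 loci with the highest mean CPM held 20.2% of the restricted loci's counts in BSM1, 9.22% in BSM2 and 17.2% in BSM3, so that most counts lay in the other loci.

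**Figure D1:**
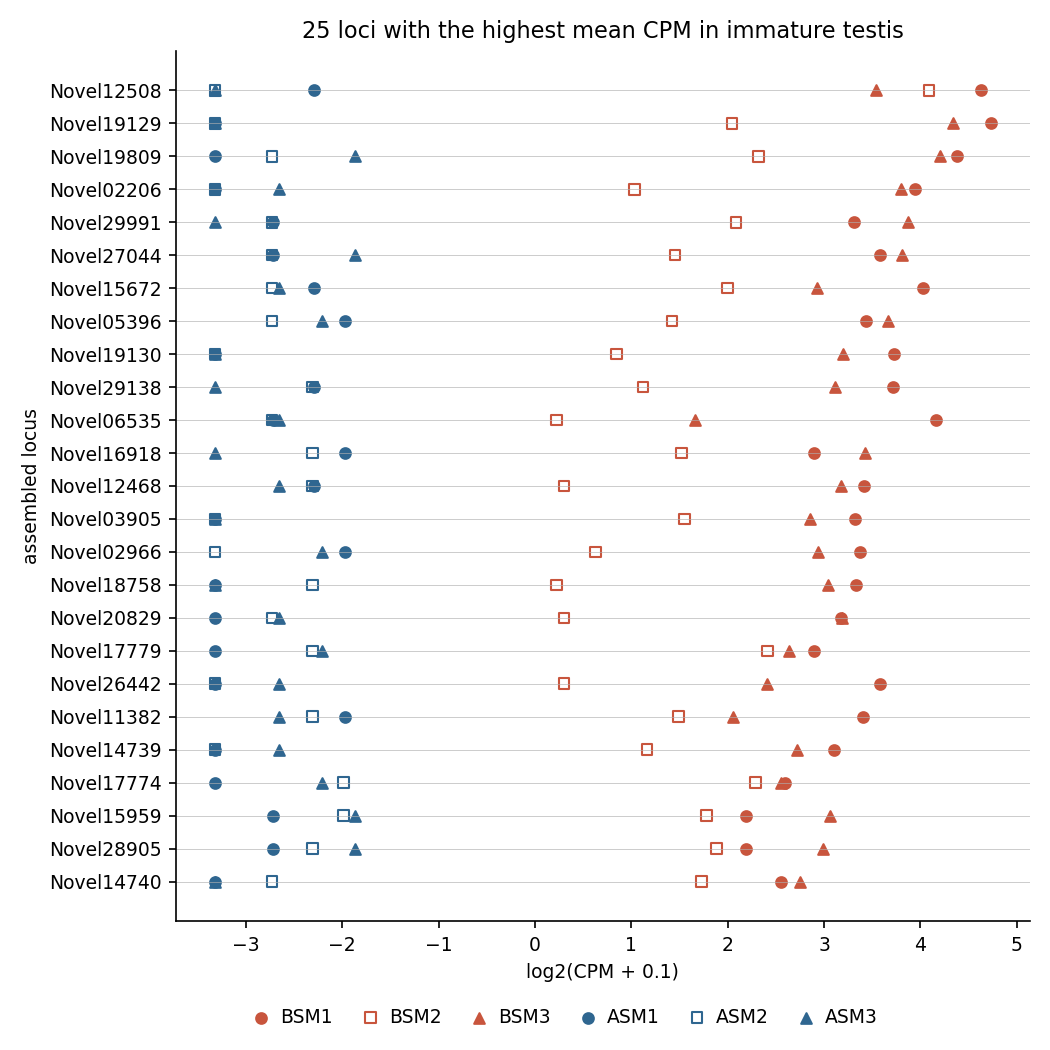
Level in each library of the 25 immature-restricted assembled loci with the highest mean CPM in the colts. The x axis is log2(CPM + 0.1), so that a count of 0 lies at the left end, the y axis lists the loci, red symbols are the 3 BSM libraries and blue symbols the 3 ASM libraries; the stages are apart because the loci were chosen for it, and the open red squares (BSM2) lie left of both other BSM libraries in 24 of the 25 loci.

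Per length, the strongest signal came from Novel19129, a locus of 699 bp. It had 414 counts in BSM1, 64 in BSM2 and 282 in BSM3, and 0 counts in each ASM library. Its level in the colts was 24.1 ± 16.6 FPKM (SD, n = 3), and 33.3 FPKM over BSM1 and BSM3 alone. BSM2 was far below the other colts, and above every stallion as the rule requires. With the mature level set at 3 counts over the ASM libraries together (0.0533 CPM), its CPM was at least 316-fold higher in BSM, or at least 437-fold without BSM2. The next number in the list, Novel19130, named after its values were seen, is a restricted locus as well, with 205 counts in BSM1, 27 in BSM2, 127 in BSM3 and none in any stallion. It is 1112 bp long, and its CPM was at least 149-fold higher in BSM, or at least 208-fold without BSM2. Both loci thus had the same order of colts, with BSM1 highest and BSM2 lowest.

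Other loci with a high FPKM fell into a group that was uneven between the colts and a group that was even. In the uneven group, Novel02966 (541 bp) had 161, 23 and 106 counts in the colts, in the order BSM1, BSM2, BSM3 that is kept from here on, and 3, 0 and 2 counts in ASM1, ASM2 and ASM3. Novel03905 (570 bp) had 155, 45 and 100 counts in the colts and 0 in each stallion, a CPM at least 124-fold higher in BSM and at least 160-fold without BSM2. The levels of Novel02966 and Novel03905 were 11.9 ± 8.38 and 11.6 ± 6.26 FPKM (SD, n = 3), and 16.5 and 15.0 FPKM over BSM1 and BSM3 alone. Here too BSM1 was the highest colt and BSM2 the lowest. Novel26442 (729 bp) had 185, 18 and 73 counts, and Novel02206 (1290 bp) had 239, 31 and 193 counts, each with a single count in ASM3 and 0 in ASM1 and ASM2. For Novel02206 the ratio of the mean CPM in BSM to the pooled CPM in ASM was 581, with an exact Poisson interval for the mature count from 104 to 22966, so that the size of the drop was poorly determined. The level of Novel26442 was 8.31 ± 7.41 FPKM (SD, n = 3), a spread almost as large as the mean, and 11.7 FPKM over BSM1 and BSM3 alone.

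The even group among the loci highest in FPKM was made up of short loci. Novel07475 (361 bp) had 39, 41 and 41 counts in the colts, or 7.38 ± 0.634 FPKM (SD, n = 3), and 2, 3 and 2 counts in the ASM libraries. Novel27056 (392 bp) had 53, 42 and 40 counts, or 7.55 ± 0.984 FPKM (SD, n = 3). Novel26821 (321 bp) had 38, 31 and 42 counts, or 7.66 ± 1.63 FPKM (SD, n = 3). In these 3 loci no colt stood apart. Their mean level in BSM was between 21.4 and 27.8 times the pooled level in ASM, on the CPM scale. Novel21097 (268 bp) and Novel27488 (359 bp), with 67, 23 and 27 counts and 70, 31 and 37 counts, were also short, but BSM1 was more than 1.5 times above the other colts. Short loci stand high on this list partly through the rule, since 1 CPM on a short locus is a high FPKM.

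Counted per library rather than per length, the highest locus was Novel12508 of 6762 bp. It had 386 counts in BSM1, 269 in BSM2 and 162 in BSM3, against 2, 0 and 0 in the ASM libraries, and its level was 17.7 ± 6.60 CPM or 2.62 ± 0.976 FPKM (SD, n = 3). This was the exception among the abundant loci, since BSM2 lay between the other colts. Novel19809 (3075 bp) had 324, 78 and 256 counts in the colts and 0, 1 and 3 in the stallions. Novel29991 (3168 bp) had 154, 66 and 203 counts in the colts and 1, 1 and 0 in the stallions. Both were lowest in BSM2, at 0.252 and 0.341 of the mean CPM of BSM1 and BSM3.

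What was left in the mature testis was at the level of single reads. In 10 of the 265 loci no ASM library had a count, and in a further 52 the highest ASM count was 1. The highest count was 2 in 90 loci and 3 in 113 loci, the largest class, so many loci ended at the limit itself. Over the 3 ASM libraries together the median locus had 4 counts. For the 10 loci without a count, the CPM in BSM was at least 20.7-fold to at least 316-fold higher. For the 94 loci with 1 to 3 mature counts in all, the ratio of BSM to ASM had a median of 56.0, and of 34.7 with the mature level set at the same 3 counts as for the loci without a count. For the 161 loci with more counts the ratio had a median of 21.1 and was never under 8.65. These ratios describe the choice and are not evidence for it. In edgeR's quasi-likelihood test of ASM against BSM with Benjamini-Hochberg adjustment over 32954 tested features, 36.0% of all features were called lower in ASM, and all 265 loci were tested and called lower. Since the same contrast chose them, nothing is read from that count.

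Just inside the minimum, Novel01127, Novel04263 and Novel04948 had 16 counts each in BSM2, which was 1.01 CPM. Just outside it, Novel00403, Novel00477 and Novel03734 had 14 counts each in BSM3, which was 0.999 CPM. The restricted loci with the highest level among those with 3 as their highest mature count were Novel19809, Novel27044 and Novel05396, with 14.6, 9.46 and 8.63 CPM in BSM. Beyond the limit, with 4 as the highest mature count, lay 142 further loci that met the minimum in every colt. The strongest of them, Novel14705 (6096 bp), had 289, 36 and 996 counts in the colts, and 4, 2 and 2 counts in the stallions. Novel15060 had 324, 24 and 48 counts in the colts, and Novel11300 had 152, 64 and 131. Novel14705 was therefore higher in BSM3 than any restricted locus, and was left out for a single count.

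The choice was next made on 5 libraries and read in the sixth, whose values had no part in it. When BSM1 was left out, 366 assembled loci were chosen, and 265 of these, or 72.4% (exact binomial 95% interval 67.5 to 76.9), reached 1 CPM in BSM1. Of the assembled loci at 1 CPM or more in BSM2 and BSM3 at any mature level, 84.1% did. With BSM3 left out, 265 of 344 loci, or 77.0% (72.2 to 81.4), reached 1 CPM in BSM3, against 92.8% at any mature level. With BSM2 left out, 559 loci were chosen, and only 265 of these, or 47.4% (43.2 to 51.6), reached 1 CPM in BSM2, against 88.2% at any mature level. The share was lowest for BSM2 among the 6 libraries. The loci at any mature level are not matched for level. Over BSM1 and BSM3 their median was 3.17 CPM, against 1.76 CPM for the 559 loci, so the shares at any mature level are not set against the chosen loci as a test. In the stallions, at most 3 counts were found in 265 of 340 loci (77.9%) for ASM1, 265 of 417 (63.5%) for ASM2 and 265 of 361 (73.4%) for ASM3. Among assembled loci with at most 3 counts in the other 2 stallions, at any immature level, these shares were 83.5%, 78.6% and 82.2%. The highest count in a left-out stallion was 37, in both ASM1 and ASM2, so that 2 stallions near 0 did not always mean that the other was. The intervals treat loci as independent, which they need not be.

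**Figure D2:**
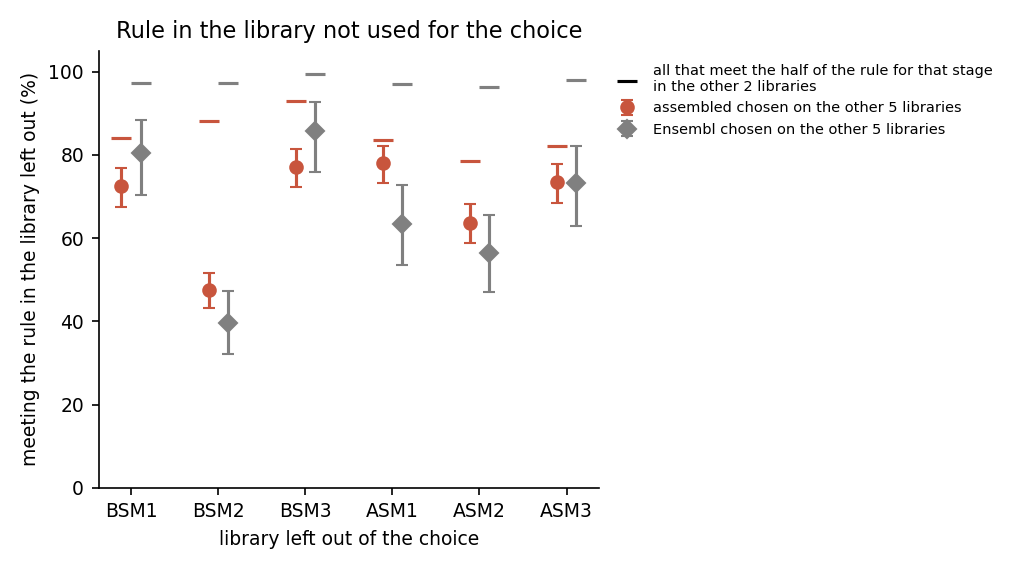
Share of loci that met the rule in the library left out of the choice (y axis, %), for each library (x axis). Circles are assembled loci and diamonds Ensembl genes chosen on the other 5 libraries, with exact binomial 95% intervals. Dashes are all loci or genes that met the condition for that stage in its other 2 libraries, whatever their level in the other stage. The lowest point among assembled loci is BSM2, at 47.4%. Its dash, at 88.2%, stands for loci with a higher median level, so the gap between them is not read as a test.

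The low level in BSM2 was seen in loci that were low in the stallions, not in assembled loci at large. Among the 559 loci chosen without BSM2, its CPM had a median of 0.484 of the mean of BSM1 and BSM3. Over all 7684 assembled loci at 1 CPM or more in BSM1 and BSM3, at any mature level, the median was 0.916. With BSM1 left out the medians were 0.854 for the chosen loci and 0.844 for all assembled loci, and with BSM3 left out they were 0.988 and 1.02. For Ensembl genes the median in BSM2 was 0.366 for the 167 genes chosen without it and 1.01 for the 14324 genes at any mature level. With TMM scaling, which corrects for differences in composition between libraries, the medians in BSM2 were 0.448 for the chosen assembled loci and 0.880 for all, so the gap was also present there (461 loci chosen). Each value rests on a single colt, so no test between horses was possible.

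The 1627 assembled loci restricted to the mature testis held 862 counts in BSM1, 2278 in BSM2 and 1534 in BSM3, or 0.00551%, 0.0143% and 0.0109% of all counts. BSM2 had the largest of these shares. The rule that chose those loci capped their counts in each colt, and the rule for the 265 loci set a minimum in each colt, so both totals describe the chosen sets and are no independent measure of BSM2. Whether the colts differed in the progress of maturation was not tested.

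BSM2 was the lowest colt in 149 of the 265 loci (56.2%), BSM1 in 75 and BSM3 in 41. The highest colt was BSM3 in 122 loci, BSM1 in 99 and BSM2 in 44. Among the 3345 assembled loci at 1 CPM or more in all 6 libraries, not matched for level, BSM2 was lowest in 30.9% and BSM1 in 50.0%. Among the 66 Ensembl genes that met the immature rule, BSM2 was lowest in 53.0%. Of the 265 loci, 26 had a mean of 5 CPM or more. BSM2 was lowest in 25 of these 26, and its level had a median of 0.236 of the mean of BSM1 and BSM3. The median was 0.724 in the 80 loci from 2 to under 5 CPM and 0.829 in the 159 loci under 2 CPM. No relation of the dip to level is read from this, since a locus with a mean near 1 CPM cannot be low in BSM2 and remain in the set. The 294 loci left out only for their level in BSM2 had a median ratio of 0.290 at a median of 1.60 CPM over BSM1 and BSM3. The choice of those 294 loci fixed a ratio under 1 for each of them. Above the same minimum of 5 CPM, but not matched for level beyond it, BSM2 was the lowest colt in 711 of the 2123 assembled loci (33.5%) that were at 1 CPM or more in all 6 libraries, with a median ratio of 1.01. Of those 2123 loci, 1383 had a mean of 10 CPM or more, against 4 of the 26. BSM2 was the lowest colt in 7 of the 8 Ensembl genes that met the immature rule at 5 CPM or more, with a median ratio of 0.331.

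**Figure D3:**
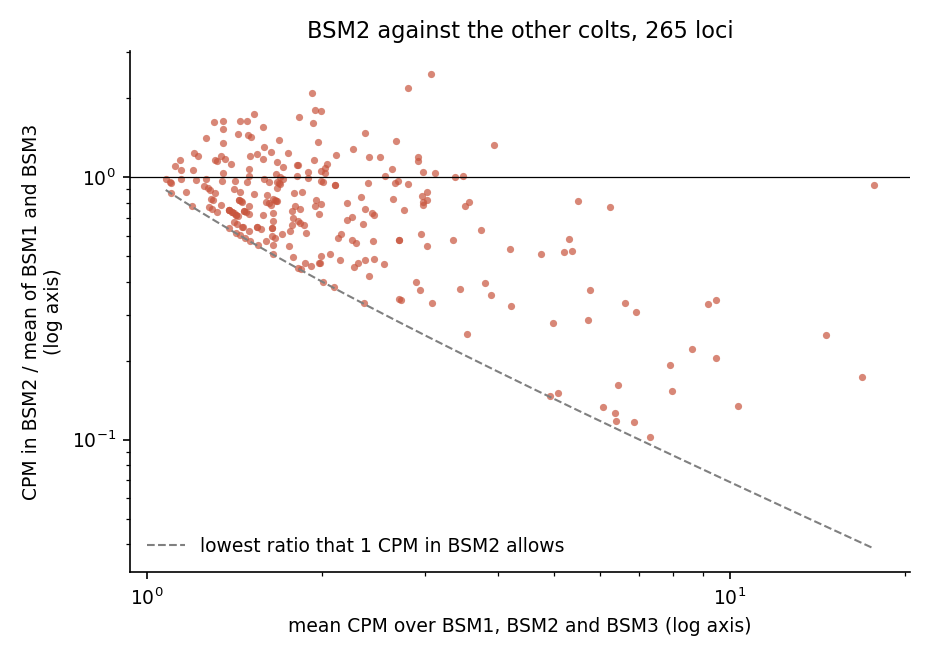
CPM in BSM2 divided by the mean of BSM1 and BSM3 (y axis, log scale) against the mean CPM over the 3 colts (x axis, log scale), 1 point for each of the 265 loci. The solid line marks equal levels and the dashed line the lowest ratio that a minimum of 1 CPM in BSM2 leaves; the 26 loci at 5 CPM or more have a median ratio of 0.236, and points near 1 CPM are held up by the minimum.

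The coefficient of variation (SD over mean) of CPM in the 3 colts had a median of 0.268, with 0.161 and 0.425 as quartiles. Counting error, taken for each locus as 1 over the square root of its mean count, had a median of 0.190. That is not the median that coefficients from 3 libraries would have under counting error alone, which was not worked out. The observed value was more than 2 times that error in 84 of the 265 loci; it holds any difference between horses as well, and a coefficient from 3 libraries is itself imprecise. The most uneven locus was Novel06535 (4850 bp), with 278 counts in BSM1, 17 in BSM2 and 43 in BSM3, and 1 count in each stallion. Novel21152 (1107 bp) had 139, 28 and 28 counts, so that BSM1 alone was high. At the other end, Novel02465 (2335 bp) had 26, 27 and 23 counts and Novel09664 (2735 bp) had 29, 30 and 27 counts, with coefficients of 0.0169 and 0.0191. Novel26658 (353 bp), with 18, 17 and 15 counts, had the next lowest coefficient. Their spread was below counting error, and they were named because they were the lowest of 265. When a colt was left out of both the choice and the coefficient, which then rests on 2 libraries and on other loci, the median was 0.209 without BSM1, 0.166 without BSM2 and 0.214 without BSM3.

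Of the 44 loci that were highest in BSM2, the 3 with the highest ratio of BSM2 to the mean of the other colts were named after their values were seen. Novel06781 (4222 bp) had 31, 81 and 30 counts in the colts, a ratio of 2.47. Novel15662 (947 bp) had 34, 70 and 26 counts, a ratio of 2.18, and Novel12142 (1840 bp) had 16, 47 and 25 counts.

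The length of each locus was recovered from its count, its FPKM and the library total, and was a whole number, within 1e-06 bp, for 100% of the values with a count. The restricted loci were between 242 and 9103 bp long, with a median of 1824 bp and quartiles of 1214 and 2610 bp. Over all 31733 assembled loci the median was 1162 bp. It was 972 bp for the loci restricted to the mature testis, 1220.5 bp for the Ensembl genes chosen by the immature rule, and 2650 bp for the 3345 assembled loci at 1 CPM or more in all 6 libraries. In the length classes, 14 loci (5.28%) were under 500 bp and 36 (13.6%) from 500 to 999 bp, whereas 101 were from 1000 to 1999 bp, 72 from 2000 to 2999 bp and 42 had 3000 bp or more. In the mature-restricted set, 14.9% were under 500 bp and 36.3% from 500 to 999 bp, and 5.72% had 3000 bp or more against 15.8% here. The loci at 1 CPM or more in all 6 libraries lay further to the long side, with 127 of 3345 under 500 bp, 370 (11.1%) from 500 to 999 bp and 1462 (43.7%) at 3000 bp or more.

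**Figure D4:**
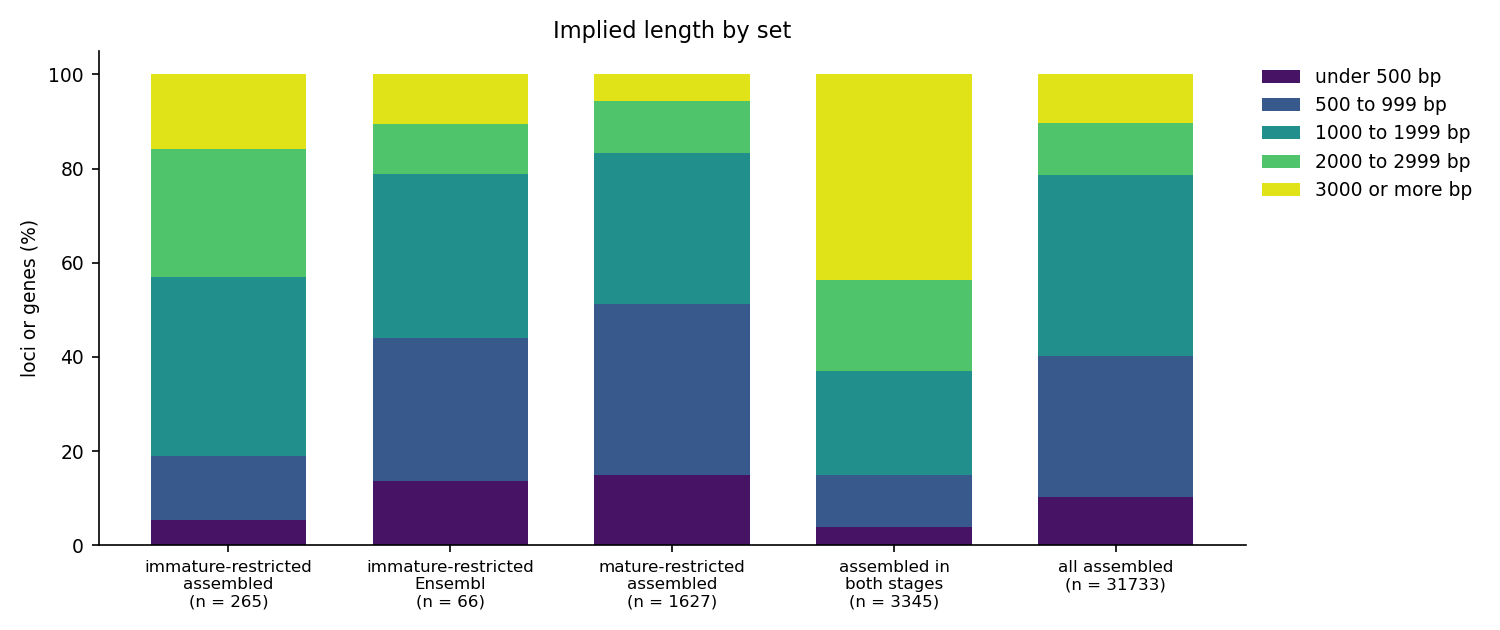
Share of loci or genes (y axis, %) in 5 classes of implied length, for the immature-restricted assembled loci and 4 other sets (x axis). The 265 loci hold 38.1% from 1000 to 1999 bp and 15.8% at 3000 bp or more, and the mature-restricted loci hold 5.72% at 3000 bp or more.

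Length was not named in the rule but was not free of it, because a long locus collects more counts at the same FPKM. With a minimum of 0.5 CPM the median length was 1350.5 bp (1086 loci), with 2 CPM it was 2893.5 bp (40 loci), and with a minimum of 1 FPKM in place of 1 CPM it was 512 bp (252 loci, 88 of them among the 265). The mature-restricted loci did not move in this way with CPM, at 959 bp with 0.5 CPM and 958 bp with 2 CPM, but fell to 624 bp with 1 FPKM. Under 1 FPKM the immature-restricted loci were thus the shorter of both sets, so that the order of the lengths depended on the unit of the minimum.

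Level and length were related among the 265 loci on the scale of counts. The 42 loci of 3000 bp or more had a median of 3.21 CPM, and each shorter class had a median between 1.66 and 1.80 CPM. In FPKM the order was different, with a median of 5.33 in the 14 loci under 500 bp, 2.57 from 500 to 999 bp, 1.11 from 1000 to 1999 bp, 0.717 from 2000 to 2999 bp and 0.863 at 3000 bp or more. FPKM is CPM divided by length, and the shorter classes had similar CPM near the minimum of the rule. Their fall in FPKM with length therefore follows from that division and is no separate result. The longest loci showed the contrast between the scales. Novel05396 (9103 bp) had 168, 41 and 176 counts in the colts but only 0.948 ± 0.584 FPKM (SD, n = 3), and Novel17774 (7423 bp) had 93, 76 and 81 counts and 0.741 ± 0.0852 FPKM (SD, n = 3). The shortest, Novel17970 (242 bp), had 16, 19 and 16 counts, barely above the minimum, and 4.63 ± 0.362 FPKM (SD, n = 3). Novel19354 (291 bp) had 48, 18 and 15 counts and 6.04 ± 3.91 FPKM (SD, n = 3).

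The identifier numbers held some structure that the rule did not use. Among the 265 loci there were 9 pairs with consecutive numbers, so that 3.40% of the loci were followed by another, while restricted loci made up 0.835% of all assembled loci. In 6 of the 9 pairs both loci were lowest in BSM2, in 1 pair both were highest there, and 2 pairs were mixed. Agreement within pairs was not tested, and BSM2 was the lowest colt in 56.2% of all 265 loci. For Novel08316, in 1 of the 6 pairs, BSM1 and BSM2 both had 22 counts, so its place rests on the library totals. The pairs named next were chosen after their values were seen, to show each kind. What the order of the numbers stands for is not given in the sources used here, and such pairs may be pieces of a single transcript or separate transcripts. Within the pair Novel14739 and Novel14740, of 1099 and 3213 bp, the counts in the colts were 133, 34 and 91 in the first and 90, 51 and 93 in the second. Both were lowest in BSM2. Within the pair Novel15425 and Novel15426, of 679 and 573 bp, they were 27, 45 and 20 in the first and 20, 33 and 24 in the second, and both were highest in BSM2. The pair Novel28647 and Novel28648 was even, with 43, 41 and 33 counts and 23, 29 and 30 counts. No count or interval given here merges such pairs.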

How the data were processed

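Poly(A) RNA of 3 BSM and 3 ASM testes was sequenced by the authors in paired-end, strand-marked libraries. Per the labels and methods, reads were aligned with TopHat 2.0.12 and Bowtie2 2.2.3 to the Ensembl horse genome, transcripts were assembled with Cufflinks, and reads were counted with HTSeq 0.6.1. The genome build, annotation release and strand setting are not given in the sources used here, so loci that overlap a gene or its antisense strand are uncertain. The loci were assembled from reads of these horses. The authors deposited raw counts per gene or locus, and FPKM values that the authors derived from count and length.

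CPM was count over column total. Implied length was CPM over FPKM, in kilobases. The members, lists and rules were chosen with earlier results of these data known. Named loci are those highest in FPKM and CPM, longest, shortest, most and least even between colts, and next to the limits, in numbers set by rule, and others are said to have been chosen after their values were seen. edgeR 4.0.16 in R 4.3.3 (TMM, filterByExpr, quasi-likelihood test, adjusted p under 0.05) was run on all features with stage as the only term, and was tested on simulated data. DESeq2 1.42.0, other scalings, limits and minima, no filter and each library left out were the alternatives. No pair of libraries was a near-duplicate, with 11.3 as the lowest chi-square of their counts divided by its degrees of freedom. Between the colts this value, over all features, was 19.5 for BSM2 and BSM3, 20.9 for BSM1 and BSM3, and 42.0 for BSM1 and BSM2. The p-values of 3 against 3 horses set the stage difference against a dispersion estimated from these horses. No table matched identifiers to symbols, so cell type markers were not used.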

Additional observations from a re-analysis of the deposited data

How the results depend on the processing

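The fits called all 265 loci lower in ASM under every alternative, which the choice of the loci explains by construction. The 265 loci became 10 with 0 counts in each ASM library, 1324 with at most 10, 1086 at 0.5 CPM, 40 at 2 CPM and 146 with DESeq2 size factors. The median CPM of 1.82 became 1.07 at 0.5 CPM, 3.84 at 2 CPM and 1.10 at 1 FPKM. The median FPKM of 1.03 became 1.46 with 0 mature counts, 0.796 at 0.5 CPM, 1.52 at 2 CPM, 2.09 at 1 FPKM and 1.19 with DESeq2 size factors. The median length of 1824 bp became 1256 bp with 0 mature counts, 1960.5 bp with at most 10, 1350.5 bp at 0.5 CPM, 2893.5 bp at 2 CPM, 512 bp at 1 FPKM, 1903.5 bp with TMM and 1970.5 bp with DESeq2 size factors. The median coefficient of variation of 0.268 became 0.229 with 0 mature counts, 0.308 at 0.5 CPM, 0.309 at 2 CPM and 0.297 at 1 FPKM. The share of BSM counts, 0.0681%, became 0.00454% with 0 mature counts, 0.342% with at most 10, 0.156% at 0.5 CPM, 0.0220% at 2 CPM, 0.0431% at 1 FPKM and 0.0463% with DESeq2 size factors. Read in the library left out, 90.7% (BSM1), 78.0% (BSM2) and 95.3% (BSM3) reached 0.5 CPM, and 22.6% (ASM1), 13.9% (ASM2) and 21.1% (ASM3) had 0 counts. These alternatives change the limits of the rule itself, and the cause of the shifts with scaling was not tested.

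With each library left out of the rule, the number of loci was between 340 and 559 (559 without BSM2, 417 without ASM2), the median CPM between 1.60 and 1.89, the median FPKM between 1.00 and 1.12, the median length between 1650 and 1903 bp, the median coefficient of variation between 0.166 and 0.275, the share of BSM counts between 0.0776% and 0.137% (0.137% without BSM2, 0.107% without ASM2), and the loci called lower 265 in each. The rule asks for every library, so leaving out any of them can only add loci. The lengths of the compared sets under other minima, the means without BSM2, both rules under other scalings or a single CPM limit, and the mature level set at 3 counts were added after seeing the data. No paired analysis was possible because the stages come from different horses and the mature columns are not tied to single sample titles. Depth limits the mature level: 3 counts in a library are at least 0.152 CPM.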

Other observations

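A group of 294 assembled loci met every condition except 1 CPM in BSM2, and so are not among the 265 loci. Their median level was 1.60 CPM over BSM1 and BSM3 and 0.503 CPM in BSM2, with 171 at 0.5 CPM or more in BSM2, 46 at 3 counts or fewer and 6 at 0 counts. The following were chosen after their values were seen, the first 3 as the highest of this group in BSM1 and BSM3 and the last for its single count in BSM2. Novel15084 (1340 bp) had 198 counts in BSM1, 6 in BSM2 and 109 in BSM3, and 2, 1 and 2 in the ASM libraries. Novel00686 (2474 bp) had 19, 0 and 201 counts in the colts, so that BSM3 alone was high. Novel14461 (442 bp) had 139, 11 and 90 counts in the colts and 1, 1 and 0 in the stallions, with 12.1 ± 9.51 FPKM (SD, n = 3), more than all but 1 of the 265 loci. Novel31512 (5689 bp) had 116, 1 and 44 counts.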
